A study of Saccharomyces cerevisiae with 100 samples.

Results

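The SNVs described here are the C-to-T single-nucleotide variants (SNVs) that fell in protein-coding sequence outside chromosome XII in 95 rad53∆ sml1∆ suppressors. They were chosen by annotation alone: the reference base was C and the alternative base T, or the same change read on the opposite strand (G to A), and the annotated effect was synonymous, missense or nonsense. This rule gave 284 SNVs, out of 1707 coding SNVs outside chromosome XII, 1998 coding SNVs on all chromosomes, 2904 SNVs in all suppressors and 3092 SNVs in the 3 sequencing experiments of the series. The 95 suppressors and their control strain, YJT75, are haploid derivatives of the laboratory strain W303 with the genotype MATa sml1Δ::URA3 rad53Δ::LEU2. They therefore all lack Rad53, the checkpoint kinase that protects stalled replication forks, and Sml1, the ribonucleotide reductase inhibitor whose loss keeps such cells alive. The suppressors were picked as colonies that survived on plates with the alkylating agent methyl methanesulfonate (MMS), and each was grown in rich YPD medium to exponential phase and sequenced as 1 library. Some suppressors share SNVs, so the 95 may not all be of separate descent: 49 of them carry the same 3 SNVs (in GUD1, in CHC1 and on chromosome II) and the other 46 do not. The main comparisons were therefore also run within these groups of 49 and 46. The other experiments of the series, used once below, are single pairs of W303 derivatives. YMS6, an exo1∆ rad53∆ strain whose label gives a MAT a mating type and the W303 marker alleles of ADE2, URA3, HIS3, TRP1, LEU2 and CAN1 alone, was set against YGDP939, which carries sml1Δ::URA3, rad53Δ::LEU2 and exo1Δ::HIS3. S64Bα, a suppressor, was set against W64Aα, and both are MAT alpha with chk1Δ::LEU2 and exo1Δ::TRP1 beside sml1Δ::URA3 and rad53Δ::HIS3.

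A C-to-T change is a transition, an exchange of one pyrimidine for the other. It can follow deamination of cytosine to uracil, which DNA polymerases copy as thymine, or arise during copying of damaged cytosine or guanine, and MMS methylates bases including the cytosine of single-stranded DNA. Within a gene the C can lie on the coding strand, which has the sequence of the mRNA, or on the template strand, in which case the coding strand shows G to A. On the coding strand C to T turns the codons CAA, CAG and CGA into stop codons, and G to A does so for the tryptophan codon TGG. Transitions at the last position of a codon often leave the amino acid unchanged. None of this background was measured here, and the bases next to each SNV were not analysed.

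The value behind each SNV is an allele frequency, the fraction of a library's reads at the position that carried the alternative base. The authors listed an SNV where this fraction was at least 0.40 in a suppressor and below 0.1 in YJT75. They also required a minimum number of reads with the alternative base. Among the 284 C-to-T SNVs the allele frequency was exactly 1 for 177, the median was 1, and the lowest was 0.4016. All but 5 were listed at 0 in YJT75, and those 5 reached at most 0.0957 there. A total of 17 SNVs (5.99%) were under 0.7, against 64 of the 1423 coding SNVs of the other 5 substitution classes (4.50%). Within suppressors the mean share under 0.7 was 6.29% for C-to-T and 6.04% for the others, a difference of 0.25 percentage points that was within the spread between suppressors (permutation test, p = 0.838, n = 84). SUP124 alone held 7 of the 17, at 0.4062 to 0.6634, in YAL069W, CDC27, SAP4, GLG1, PFK2, YOL013W-A and ALD6, and these were all of its C-to-T SNVs. SUP47 held another 2, in UGA4 and NAN1, and the remaining 8 were spread over 8 suppressors. Read depth per position is unknown, so the error of a single allele frequency was not estimated.

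Most of these SNVs were seen once. They lay in 267 genes, 280 of them were carried by 1 suppressor only, and 4 were shared. In 5 cases a noncarrier also showed the alternative base at over 0.1, up to 0.3562: YAL069W and YBL113C (2 SNVs), which lie near chromosome ends, the Ty retrotransposon open reading frame YBL100W-B, and FLC1. The genes near chromosome ends and the Ty frame have near-identical copies elsewhere that can share their reads, so their calls are uncertain.

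C-to-T was a middle-sized class. It made up 16.6% of coding SNVs outside chromosome XII (95% exact binomial interval 14.9 to 18.5%, counting error only), next to 305 C-to-A (17.9%), 255 C-to-G (14.9%), 507 T-to-C (29.7%), 268 T-to-A (15.7%) and 88 T-to-G SNVs (5.16%). The other transition, T-to-C, was thus the more frequent of the pair by count, and the transversions that start from the same C:G base pair, C-to-A and C-to-G, were each close to C-to-T in number. How many C:G and T:A pairs the coding sequence holds was not analysed, so rates per base were not compared.

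On which strand of the gene did the C lie? The systematic name of a yeast gene ends in W or C for the DNA strand that carries its coding sequence, so the coding-strand base of each SNV can be read from the name. C was on the coding strand in 165 of the 284 SNVs and G in the rest, which is 58.1% with C (interval 52.1 to 63.9%) and 1.39 times as many C as G. C outnumbered G in genes of both orientations. Genes on the W strand had 89 SNVs with C and 69 with G on the coding strand (56.3%, 48.2 to 64.2%), and genes on the C strand had 76 with C and 50 with G (60.3%, 51.2 to 68.9%). Counted on the reference strand without regard to genes, the same SNVs were nearly even, with 139 at C and 145 at G.

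The suppressors were then used as replicates, and only SNVs carried by 1 suppressor were counted, so that an inherited SNV could not enter several times. Each suppressor had on average 1.73 C-to-T SNVs with C on the coding strand and 1.22 with G, a difference of 0.505 ± 1.64 (SD, n = 95). The difference was positive in 44 suppressors and negative in 26, and it was larger than the spread between suppressors allowed for (two-sided permutation test with sign flips, p = 0.00376). Leaving out each suppressor in turn gave differences of 0.457 to 0.553 and no p above 0.00736. How many C and G the coding strands of these genes hold was not analysed, so whether C was hit more often per base was not tested.

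The classes fell into groups by the base pair they start from. C-to-A and C-to-G also had the pyrimidine on the coding strand more often, in 57.4% of 305 and 63.5% of 255 SNVs, while T-to-C, T-to-A and T-to-G had it less often, in 37.7% of 507, 38.8% of 268 and 44.3% of 88 SNVs. Tested on their own, in comparisons added later, each of these classes departed from equal numbers except T-to-G, whose difference of -0.105 per suppressor did not pass (permutation test, adjusted p = 0.380). Within suppressors the coding-strand share of C-to-T averaged 60.5% against 35.8% for T-to-C, a difference of 24.7 ± 45.5 percentage points (SD, n = 82, Benjamini-Hochberg adjusted p = 1e-04 over the 5 classes compared, permutation test), and it was higher in 61 suppressors and lower in 18. Against T-to-A the difference was 17.1 ± 44.1 points (57.7% against 40.6%, n = 75, higher in 42 suppressors and lower in 22, adjusted p = 0.0034). Against T-to-G it was 22.3 ± 53.6 points (64.8% against 42.5%, n = 51, higher in 31 and lower in 15, adjusted p = 0.00765). No difference was detected from the classes that share the C:G pair: 5.10 ± 42.1 points from C-to-A (60.6% against 55.5%, n = 81, adjusted p = 0.347) and -2.29 ± 46.1 points from C-to-G (59.5% against 61.8%, n = 77, adjusted p = 0.664). With shared SNVs counted in every carrier, however, the difference from C-to-A was 11.8 points and passed (adjusted p = 0.014, n = 85, permutation test). With C-to-A and C-to-G pooled, a comparison chosen after the values were seen, C-to-T differed by -1.32 points (p = 0.763, n = 82). An excess of C over G on the coding strand was therefore measured for C-to-T, and among SNVs carried by 1 suppressor it was not shown to be particular to C-to-T among changes at C:G pairs.

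**Figure D1:**
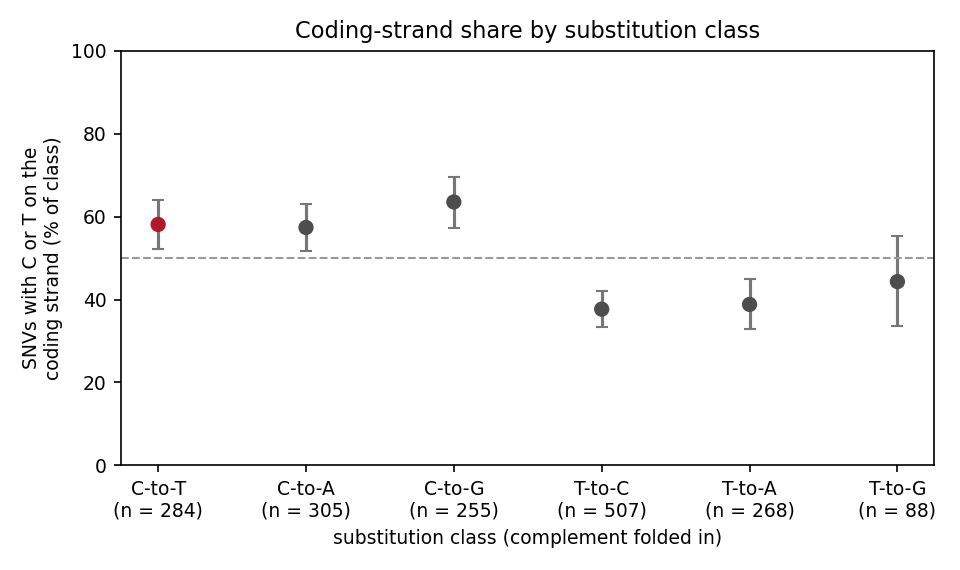
Share of coding SNVs outside chromosome XII with the pyrimidine (C or T) on the coding strand, in percent of each substitution class, with C-to-T in red. Points are shares over all SNVs of a class, bars are 95% exact binomial intervals (counting error only), and the dashed line marks equal numbers on both strands. The 3 classes at C:G pairs lie at 57.4 to 63.5% and the 3 classes at T:A pairs at 37.7 to 44.3%.

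The strand was also counted within each effect. Among the 109 synonymous C-to-T SNVs 73 had C and 36 had G on the coding strand (66.97% with C, 57.3 to 75.7%). Among the 166 missense SNVs the numbers were 85 and 81 (51.2%, 43.3 to 59.03%), and among the 9 nonsense SNVs they were 7 and 2. Counted per suppressor, the difference between C and G was 0.389 for synonymous SNVs alone (p = 0.00099, permutation test, n = 95) and 0.0632 for missense SNVs alone (p = 0.663). These splits were chosen after the values were seen, and the direct comparison did not pass: in the 54 suppressors with both kinds the share with C was 70.9% for synonymous and 58.1% for missense SNVs, a difference of 12.8 ± 53.1 points (higher in 27 and lower in 15, p = 0.0815, adjusted p = 0.128 over the 11 comparisons added). Synonymous and missense C-to-T SNVs were thus not shown to differ in strand. For T-to-C, the other transition, synonymous SNVs were even (87 with T and 88 with A on the coding strand) and of 332 missense SNVs 228 had A.

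The suppressor groups were then taken apart. In the 49 suppressors that carry the 3 shared SNVs, 86 C-to-T SNVs had C and 46 had G on the coding strand (65.2%, 56.4 to 73.2%), a difference of 0.816 per suppressor (positive in 26 and negative in 12, p = 0.00098, permutation test). In the 46 others the numbers were 78 and 70 (52.7%, 44.3 to 60.96%), a difference of 0.174 (positive in 18 and negative in 14, p = 0.530). The excess of C passed the test in the carriers only, but the difference between the groups, 0.642 per suppressor, did not pass when carrier status was permuted over suppressors (p = 0.0603, adjusted p = 0.190 over 4 such comparisons). Synonymous SNVs had C and G on the coding strand in 41 and 14 cases in the carriers and in 32 and 22 cases in the others. Missense SNVs had 41 and 32 in the carriers, against 43 and 46 in the others. The higher coding-strand share of C-to-T over T-to-C was 33.1 points in the carriers and 16.3 points in the others (difference 16.8 points, p = 0.0950, adjusted p = 0.190). In the 46 others alone the differences from T-to-C, T-to-A and T-to-G kept their sign and had adjusted p-values of 0.0624, 0.0890 and 0.836.

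**Figure D2:**
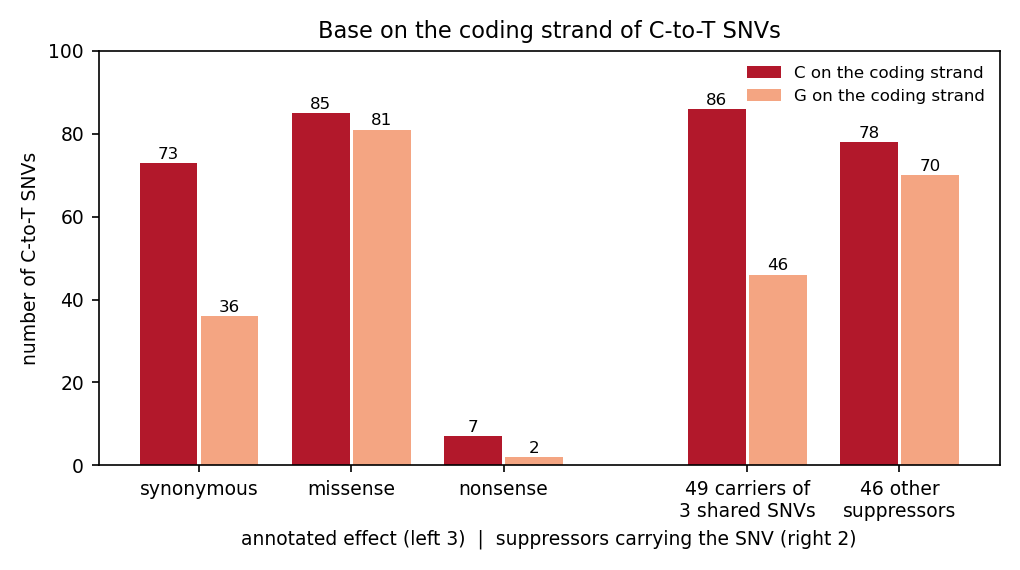
Number of C-to-T SNVs with C (red) or G (light) on the coding strand, by annotated effect for all 284 SNVs (left 3 pairs), and by suppressor group for the 280 SNVs carried by 1 suppressor (right 2 pairs). C exceeds G most clearly among synonymous SNVs (73 against 36) and in the 49 carriers of the 3 shared SNVs (86 against 46), while missense SNVs are nearly even (85 against 81).

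C-to-T changed the protein less often than the transversions did. Of the 284 SNVs 109 were synonymous (38.4%), 166 missense and 9 nonsense, so 61.6% (55.7 to 67.3%) changed the protein. This nonsilent share was 83.3% for C-to-A, 83.5% for C-to-G, 78.7% for T-to-A, 76.1% for T-to-G and 65.5% for T-to-C. Within suppressors the nonsilent share of C-to-T was 59.8% against 81.3% for C-to-A, a difference of -21.5 points (lower in 52 suppressors and higher in 19, adjusted p = 1e-04, permutation test over 5 classes). Against C-to-G it was -21.1 points (59.9% against 80.96%, adjusted p = 0.00035), against T-to-A -16.8 points (61.4% against 78.2%, adjusted p = 0.00127) and against T-to-G -22.6 points (56.9% against 79.6%, adjusted p = 0.00167). Against T-to-C the difference of -7.24 points (59.6% against 66.9%) did not pass (adjusted p = 0.0963). It passed in 1 of the sets that leave out a single suppressor, the one without SUP52 (adjusted p = 0.0424), and in the 49 carriers of the 3 shared SNVs, at -13.7 points (adjusted p = 0.0464, permutation test). With shared SNVs counted in every carrier the sign turned, to 3.10 points (61.9% against 58.8%, adjusted p = 0.458, permutation test). There the 10 shared T-to-C SNVs enter once per carrier, so inherited SNVs count several times. The genetic code differs between the classes in how often a change is silent, so these comparisons describe the coding outcome alone.

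In every class but C-to-G the SNVs with the purine on the coding strand had the higher nonsilent share. C-to-T with C on the coding strand was nonsilent in 92 of 165 SNVs (55.8%), and in 83 of those with G on the coding strand (69.7%). T-to-C with T on the coding strand was nonsilent in 54.5% of 191 SNVs, and with A on the coding strand in 72.2% of 316. With the purine against the pyrimidine on the coding strand, the shares were 82.9% against 72.1% for T-to-A and 79.6% against 71.8% for T-to-G. For C-to-A they were 84.6% against 82.3%, and for C-to-G 81.7% against 84.6%. Within the 56 suppressors that had C-to-T of both kinds the shares were 59.7% with C and 69.4% with G, a difference of -9.71 points that did not pass (p = 0.147, adjusted p = 0.203 over the comparisons added). Against the other 5 classes pooled the nonsilent share of C-to-T was lower by 14.3 points (60.6% against 74.9%, n = 84, adjusted p = 0.00139). That difference was -19.8 points in the 43 carriers of the 3 shared SNVs that could be compared (p = 0.00199) and -8.66 points in the 41 others (p = 0.0734). In the 46 suppressors without the shared SNVs no single class passed, with differences of -12.8 to -16.7 points from the 4 transversions and adjusted p-values of 0.0738 to 0.116.

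**Figure D3:**
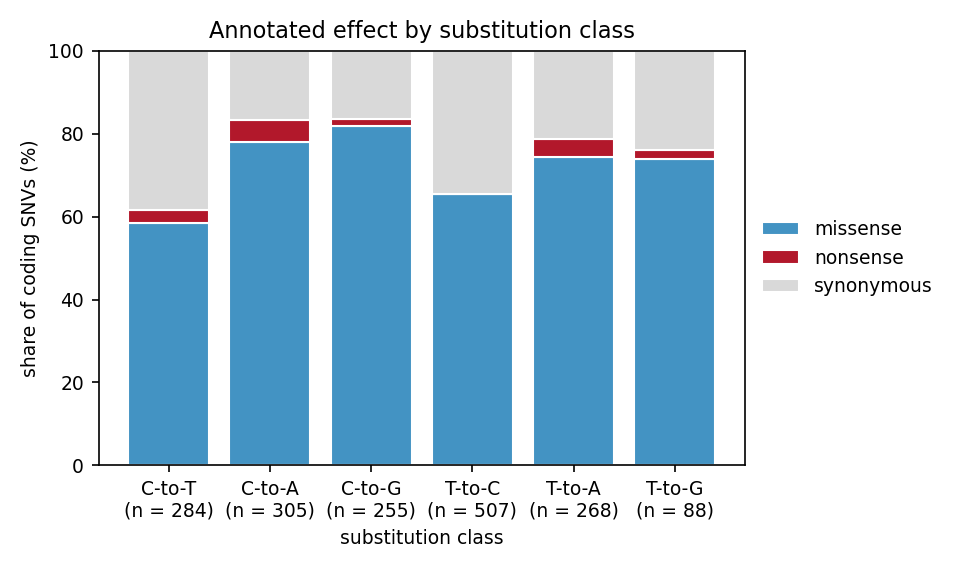
Annotated effect of coding SNVs outside chromosome XII, in percent of each substitution class, stacked as missense (blue), nonsense (red) and synonymous (grey). The synonymous part is 38.4% for C-to-T, and the nonsilent share of C-to-T (61.6%) is below that of every transversion class (76.1 to 83.5%).

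A new stop codon was created by 9 C-to-T SNVs, 3.17% of the class (1.46 to 5.93%), against 34 of 1423 (2.39%) for the other classes together. C-to-A gave 16 (5.25%), T-to-A 12 (4.48%), C-to-G 4 (1.57%) and T-to-G 2 (2.27%). T-to-C gave 0 of 507, which allows a share of up to 0.592% by 3 counts of the total and of up to 0.725% by the exact interval, and no T-to-C change can turn an amino acid codon into a stop codon. The difference of 4.55 points from T-to-C (adjusted p = 0.0185, higher in 9 suppressors) is therefore one that the genetic code fixes. From the 4 transversions C-to-T did not differ detectably in nonsense share (differences of -1.49 to 3.18 points, adjusted p-values of 0.208 to 1).

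The 9 nonsense SNVs lay in 9 genes and 9 suppressors. All 9 genes are on the W strand, which held 158 of all 284 C-to-T SNVs, and this split was not tested. Positions below are counted from 1 at the left end of each chromosome of the sacCer2 assembly, with the reference base first. In 7 of them the coding strand changed from C to T. CRF1, which encodes a corepressor of ribosomal protein genes, carried C912309T on chromosome IV in SUP74, at an allele frequency of 1. RTT107, which encodes a BRCT-domain scaffold that works at damaged replication forks, carried C404520T on chromosome VIII in SUP91, also at 1. SSP1, a gene of meiotic prospore formation, carried C473710T on the same chromosome in SUP76 at 1. YIL108W, a putative metalloprotease gene, carried C161316T on chromosome IX in SUP57 at 1. YPT11, which encodes a Rab-type GTPase that moves organelles into the bud, carried C61458T on chromosome XIV in SUP30 at 1. RSN1 carried C798730T on chromosome XIII in SUP19 at 0.9802. FLC1, which encodes a transporter of the endoplasmic reticulum, carried C133945T on chromosome XVI in SUP119 at 0.9588, and SUP118 showed the same base at 0.1069, under the minimum for a call. The other 2 changed G to A on the coding strand. These were LCL3, a putative nuclease gene, with G350244A on chromosome VII in SUP3 at 0.9901, and DDE1 (YHR045W) with G196140A on chromosome VIII in SUP58 at 0.9956. All 9 were listed at 0 in YJT75, and all stood at 0.9588 or more in their carriers.

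The 4 shared C-to-T SNVs were all missense. IRA1, whose product switches off Ras, carried C520421T on chromosome II in 9 suppressors (SUP7, SUP8, SUP9 and SUP17 to SUP22) at 0.994 to 1, and no other suppressor exceeded 0.0064. IRA1 was also one of only 2 genes with 3 distinct C-to-T SNVs, with a synonymous G521568A in SUP112 and a missense G525376A in SUP129, both at 1. SUP118 and SUP119 shared 2 of the 4: C590308T in IPT1, a gene of sphingolipid synthesis on chromosome IV, at 0.9853 to 1, and C179270T in XRN1, the major cytoplasmic exoribonuclease gene on chromosome VII, at 1 in both. These 2 suppressors each had 15 coding SNVs of the other classes, and in each only 1 was carried by no other suppressor. They may therefore not be of separate descent. SUP75 and SUP93 shared G1042007A in GDH1, a glutamate dehydrogenase gene on chromosome XV, at 1 in both. In IRA1, IPT1 and XRN1 the coding strand changed from G to A, and in GDH1 from C to T.

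Distinct C-to-T SNVs hit the same gene in 15 genes, in several suppressors for 11 and within 1 suppressor for 4. TOM1, a large ubiquitin ligase gene on chromosome IV, had 3, in 3 suppressors: a missense G1373135A in SUP46 at 0.9319, a synonymous C1374603T in SUP20 at 1 and a synonymous C1377102T in SUP21 at 0.9118. XRN1 had a second missense SNV, C179113T in SUP86 at 1. TRA1, a subunit gene of the SAGA and NuA4 acetyltransferases, had a missense C303920T in SUP1 at 0.9857 and a synonymous G303564A in SUP30 at 0.9912. SAS3, a histone acetyltransferase gene, had a missense G120706A in SUP10 at 1 and a synonymous G120264A in SUP85 at 0.9926. CDC39, the scaffold gene of the CCR4-NOT deadenylase, had a missense G285937A in SUP45 at 0.9877 and a synonymous C280686T in SUP91 at 0.9773. ALD6, a cytosolic aldehyde dehydrogenase gene, had a missense C432855T in SUP124 at 0.5804 and a synonymous C433004T in SUP72 at 1. RPS9A, a ribosomal protein gene, had a missense G405941A in SUP5 at 1 and a synonymous G405807A in SUP117 at 0.9969. RSN1 had a synonymous C799593T in SUP23 at 0.4016 besides its nonsense SNV. In GSF2 (C178611T in SUP15, C178923T in SUP73) and UGA4 (C84955T in SUP4, G85566A in SUP47) both SNVs were synonymous. Of the 11 genes hit in several suppressors, IRA1 and XRN1 were the ones with nonsilent C-to-T SNVs at more than 1 position. Whether 11 genes exceed what gene length gives was not tested.

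C-to-T SNVs were also counted in lists of genes fixed from the study's own pathways and tests and from DNA repair. Of 22 coding SNVs in the 14 pathway genes of mRNA decay, histone deacetylation and silencing, 2 were C-to-T (9.09%, 1.12 to 29.2%), both of them the missense SNVs of XRN1. Of 49 coding SNVs in the 32 genes that the study tested by deletion, 12 were C-to-T (24.5%, 13.3 to 38.9%), and 10 of these were nonsilent, in 9 genes. The study chose these 32 genes on the same suppressors, so their count is no independent evidence. Besides XRN1 and LCL3 they were BMH2 (G653708A in SUP15 at 0.9799), MPT5, an mRNA-binding protein gene (G168668A in SUP4 at 1), NUP100, a nuclear pore gene (G310225A in SUP39 at 1), STB6 (G299701A in SUP14 at 1), SWD1, a subunit gene of the COMPASS methyltransferase (G155586A in SUP62 at 0.9938), TDA7 (G306381A in SUP114 at 0.817) and YKU70, an end-joining gene (C838997T in SUP117 at 0.6126). Synonymous SNVs lay in LCL3 and MLP2. The intervals of both lists held the 16.6% measured over all coding SNVs.

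Of the 50 genes listed for base repair and damage tolerance, 4 had a C-to-T SNV, out of 22 coding SNVs in the list (18.2%, 5.19 to 40.3%). RAD52, the central homologous recombination gene, carried a missense C213800T on chromosome XIII in SUP122, at 1. REV3, the catalytic subunit gene of the translesion polymerase zeta, carried a missense C233148T on chromosome XVI in SUP7, at 1. The third was the nonsense SNV of RTT107 in SUP91, and the fourth a synonymous G870755A in MMS1, a partner of Rtt107 in the Rtt101 ubiquitin ligase, in SUP75 at 1. The uracil glycosylase gene UNG1 and the alkyladenine glycosylase gene MAG1, which remove deaminated and methylated bases, were on the list and had none.

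Each suppressor held few C-to-T SNVs. Counting a shared SNV in every carrier, C-to-T had 295 occurrences out of 1856 for all coding SNVs (15.9%), and a suppressor had 3.11 ± 2.03 C-to-T SNVs (SD, n = 95, lowest 0, median 3, highest 9) of 19.5 ± 7.04 coding SNVs. For comparison it had 3.89 ± 2.15 C-to-A, 2.79 ± 1.88 C-to-G, 5.94 ± 2.89 T-to-C, 2.84 ± 2.06 T-to-A and 0.968 ± 1.00 T-to-G SNVs. The share of C-to-T was 15.5 ± 9.85% per suppressor, and counting error alone would give an SD of 9.13. At least 1 C-to-T SNV was present in 85 suppressors, and at least 1 nonsilent one in 76. There were 1 to 4 in 62 suppressors and 6 or more in 10.

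SUP86 had the most, 9 of 26 coding SNVs (34.6%, 17.2 to 55.7%), of which 7 were nonsilent and 7 had C on the coding strand. All 9 stood at an allele frequency of 1, in SNT1, YDR445C, XRN1, PIB2 (2 SNVs), ALK1, SKN7, RPS7B and NUP1. SUP20 followed with 8 of 31, SUP21 with 8 of 26, SUP7 with 7 of 28 and SUP124 with 7 of 29. The largest shares were those of SUP53, with 5 of 10 (50%, 18.7 to 81.3%), and SUP22, with 6 of 15 (40%, 16.3 to 67.7%). SUP86, SUP53 and SUP22 were the 3 suppressors whose interval lay above the share over all suppressors, and 0 lay below it. They were picked from 95 intervals, of which some can lie outside by counting error alone. The 10 suppressors without a C-to-T SNV (SUP26, SUP38, SUP65, SUP67, SUP70, SUP88, SUP89, SUP90, SUP102 and SUP120) had only 3 to 18 coding SNVs each. Even for SUP26, with 18, a count of 0 allows a share of up to 16.7% by 3 counts of the total and of up to 18.5% by the exact interval.

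Counting only SNVs carried by 1 suppressor, suppressors with more SNVs of the other classes also had more C-to-T SNVs (Pearson's r = 0.330, permutation p = 0.00107, Spearman's rho = 0.344, p = 0.00072, adjusted p = 0.00107 for both, n = 95). Without SUP3 and SUP17, which with SUP39, SUP118 and SUP119 lay farthest from the median of 15 other SNVs (14 away), r was 0.347 and rho 0.353. Without all 5 of these tied suppressors r was 0.344 and rho 0.349. Both counts come from the same library and share its depth, whose part in the relation was not tested. In the 46 suppressors without the 3 shared SNVs r was 0.287 (p = 0.0528). With a shared SNV counted in every carrier instead, carriers of the 3 shared SNVs had 2.82 ± 1.93 C-to-T SNVs (n = 49) and the others 3.41 ± 2.10 (n = 46). Among SNVs carried by 1 suppressor, the share of C-to-T was 17.5% in the carriers and 17.6% in the others, a difference of -0.098 points (permutation test, p = 0.972).

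**Figure D4:**
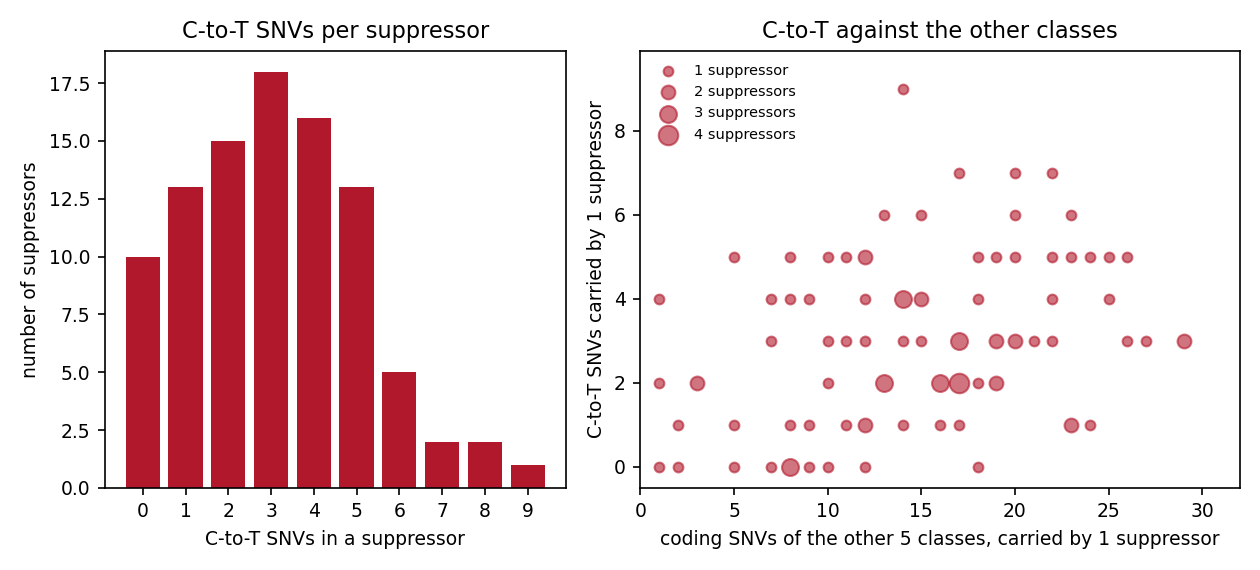
Left, number of suppressors (vertical axis) with 0 to 9 coding C-to-T SNVs outside chromosome XII. Right, C-to-T SNVs against the coding SNVs of the other 5 classes in each of the 95 suppressors, both counted over SNVs carried by 1 suppressor, with larger points where suppressors coincide. The counts rise together with wide scatter (r = 0.330), and SUP86 is the highest point, at 9.

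The share of C-to-T was also taken chromosome by chromosome. Over the 15 chromosomes other than XII it made up between 13.04% (chromosome III, 6 of 46) and 21.95% (chromosome VI, 9 of 41) of coding SNVs, with a median of 15.0%. The largest numbers were 40 of 228 on chromosome IV, 32 of 149 on chromosome XVI and 30 of 144 on chromosome XIII. The exact interval of each of the 15 chromosomes held the 16.6% measured over all of them. C exceeded G on the coding strand on 10 chromosomes, equalled it on chromosome XIII (15 of 30) and was fewer on 4 (I, V, XIV and XV). On chromosome XII, which the rule leaves out, C-to-T made up 52 of 291 coding SNVs (17.9%) and 28 of the 52 had C on the coding strand. Within suppressors the share of C-to-T was 17.2% on the other chromosomes and 15.4% on chromosome XII, a difference of 1.83 points (p = 0.467, permutation test, n = 85) whose sign turned at a minimum allele frequency of 0.7 (-9.61 points, p = 0.376, permutation test, n = 15).

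Coding and noncoding DNA did not differ detectably. In coding sequence C-to-T made up 16.7% of 1677 SNVs carried by 1 suppressor, and outside annotated genes it made up 17.4% of 660. The mean within suppressors was 17.9% in coding sequence and 18.1% outside genes, a difference of -0.147 points (p = 0.954, permutation test, n = 93). Among the other experiments of the series, C-to-T made up 20 of 63 coding SNVs outside chromosome XII in YMS6 against YGDP939, and 3 of 12 among those at 0.7 or more. In S64Bα against W64Aα it made up 4 of 12, and 3 of 9 at 0.7 or more. The study called SNVs in these pairs at a lower minimum allele frequency and allele count, so their full counts are not like those of the suppressors. C was on the coding strand in 10 of the 20 and in 2 of the 4, and 6 and 2 of them were nonsilent. At 0.7 or more, C was on the coding strand in 1 of 3 and 2 of 3, and 2 were nonsilent in each pair. These are single pairs of strains with no replicate.

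**Figure D5:**
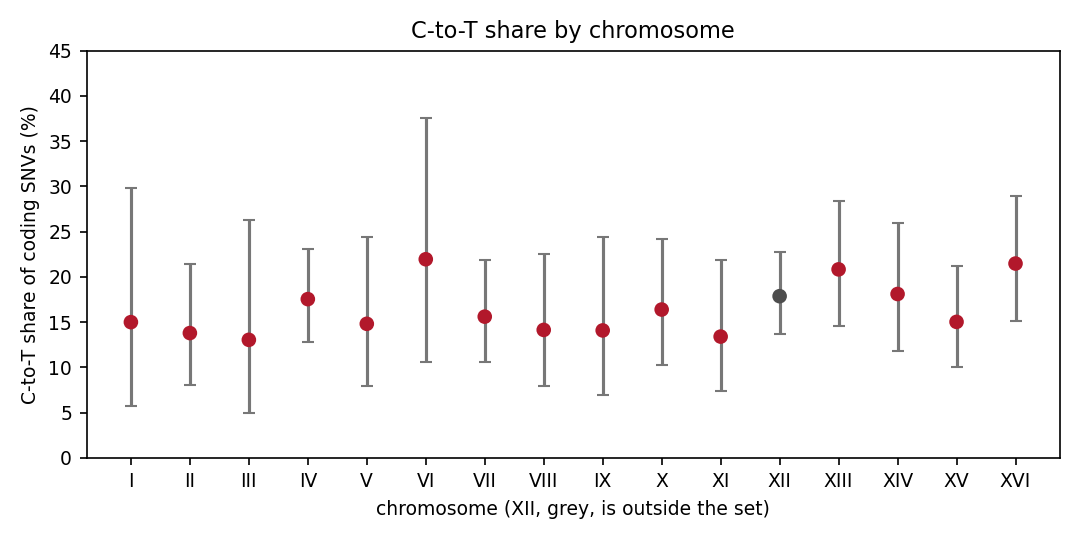
Share of C-to-T among coding SNVs on each chromosome, in percent, with 95% exact binomial intervals (counting error only). Red points are the 15 chromosomes of the set, from 13.04 to 21.95%, and the grey point is chromosome XII, at 17.9%.

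A neighbouring SNV was more frequent for C-to-T than for the other classes pooled. For 69 of the 280 C-to-T SNVs carried by 1 suppressor (24.6%) another SNV of the same suppressor, of any class and coding or not, lay within 10 kb, against 223 of 1397 (16.0%) for the other classes. Within suppressors the shares were 23.4% for C-to-T and 14.3% for the others, a difference of 9.08 ± 28.2 points (SD, n = 84, higher in 37 suppressors and lower in 29, permutation p = 0.00395, adjusted p = 0.00869 over the 11 comparisons added). This comparison was chosen after the values were seen. It was 7.07 points in the carriers of the 3 shared SNVs (p = 0.0941) and 11.2 points in the others (p = 0.0182), and 8.11 to 9.66 points with each suppressor left out. By class, 21.5% of C-to-A, 19.05% of C-to-G, 11.1% of T-to-C, 15.0% of T-to-A and 19.05% of T-to-G SNVs had such a neighbour. T-to-C, the lowest, made up 497 of the 1397 pooled SNVs. The difference of C-to-T from any single class was not tested. The excess was therefore not shown to be particular to C-to-T among changes at C:G pairs. Within 1 kb the count was 23 C-to-T SNVs (8.21%), against 3.01 to 7.38% in the other classes. Within 100 bp it was 12 (4.29%), and within 10 bp it was 7 (2.5%). At these shorter distances C-to-T was not the highest class. Within 100 bp T-to-G had 5 (5.95%), and within 10 bp C-to-A had 11 (3.69%) and T-to-G 3 (3.57%), while the remaining classes were lower.

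The nearest neighbour of the 69 SNVs, in 42 suppressors, lay at a median distance of 1611 bp. Its reference base was the same as that of the C-to-T SNV in 30 cases, the complement in 16, and A or T in 23. Where C-to-T SNVs were each other's nearest neighbour both were counted, so these cases are not all independent. The closest pairs were C310219T and C310220A in NAN1, on chromosome XVI in SUP47, which lie 1 bp apart and had allele frequencies of 0.6143 and 0.6103. LOC1 in SUP21 had G149216A and A149213C 3 bp apart on chromosome VI, and UBP12 in SUP82 had C66883T and C66880G 3 bp apart on chromosome X. Among pairs in which both SNVs were C-to-T, 9 lay within 10 kb, in 7 suppressors, and 7 of the 9 had the same reference base. These 7 include every pairing of the PIB2 and ALK1 SNVs of SUP86, which are not independent. They also include the YBL113C pair of SUP27, whose calls are uncertain. Reference bases of such pairs were not compared with those of other classes. In PIB2, which encodes an activator of TORC1 signalling, SUP86 had the missense SNVs G451364A and G451388A, 24 bp apart on chromosome VII and both at 1. PEP12, an endosomal t-SNARE gene, had a synonymous G400803A and a missense C400808T, 5 bp apart on chromosome XV in SUP74. LCL3 in SUP3 had a synonymous C349816T 428 bp from its nonsense SNV.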

How the data were processed

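A single library was made from each of 100 strains, in 3 experiments, and the 95 suppressors were compared with YJT75. The authors aligned reads to sacCer2 with Novoalign 2.07.14 and, for the libraries sequenced with longer reads, removed PCR duplicates with Picard 1.81. They counted bases with deepSNV, called SNVs with their own scripts and annotated them with snpEff. The deposited values are allele frequencies (fractions of reads), in which the entry 10 was read as 1 because no cell held 1. Each SNV comes with 1 overlapping gene and 1 effect. No read counts are given, so depth per SNV is unknown.

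C-to-T and its complement were counted together. Systematic names were matched to an R64 gene table for their symbols (258 of 267 genes had one), without its coordinates. Comparisons were paired within suppressors, on SNVs carried by 1 suppressor at 0.40 or more, with two-sided sign-flip permutation tests of 100000 draws, tested on simulated data. P-values were adjusted by Benjamini-Hochberg over the 5 other classes, or over the 11 comparisons added, at a threshold of 0.05. With 1 library per strain, p-values measure the spread between suppressors, some of which share SNVs. Intervals are exact binomial at 95% and cover counting error only.

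Named are nonsense SNVs, shared SNVs, genes with distinct SNVs in several suppressors, nonsilent SNVs in the gene lists, and suppressors with the most or fewest. Other genes were named after their values were seen. The SNVs and lists were chosen with earlier results of these data known. Alternatives were the minimum allele frequency, shared SNVs, the frequency in YJT75, carriage of the 3 shared SNVs, genes, positions with 2 alternative bases (2, none in the set), a minimum of 3 SNVs, pooling, chromosome XII and each suppressor left out. Scripts ran in Python 3.11.15 (pandas 2.3.3, scipy 1.17.1, numpy 2.4.6; plots by matplotlib 3.10.9). Codons and neighbouring bases were not analysed here.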

Additional observations from a re-analysis of the deposited data

How the results depend on the processing

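Over 19 results and 154 alternatives with a test, 15 lost and 2 gained significance, 13 changed sign, and the rest kept both direction and side of the threshold. Pooling over SNVs gave 17 more values, with no test. Of these 3 turned in sign: -1.30 points from chromosome XII, and nonsense differences of -2.15 from C-to-A and 0.833 from T-to-G. The cause was not tested.

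In the 49 carriers of the 3 shared SNVs the strand difference from C-to-G was 1.18, the nonsilent difference from T-to-C was -13.7 (adjusted p = 0.0464, permutation test), the nonsense differences were -0.102 from C-to-A, 3.01 from T-to-C and 0.119 from T-to-G, and the difference from SNVs outside genes was 3.25 points. Most losses came in the 46 others. There the strand bias was 0.174 (p = 0.530, permutation test), and the strand differences were 16.3 points from T-to-C, 13.9 from T-to-A and 4.58 from T-to-G. The nonsilent differences were -13.5 from C-to-A, -12.8 from C-to-G, -14.1 from T-to-A and -16.7 from T-to-G. The nonsense difference from T-to-C was 6.10, and r was 0.287. In the same group the strand difference from C-to-A (-0.342) and the nonsense difference from T-to-A (2.43) changed sign. Neither had passed in the main setting.

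With at least 3 SNVs of both kinds per suppressor the strand differences were -0.756 from C-to-A and 32 from T-to-G (5 suppressors), the nonsilent difference from T-to-G was -52, the nonsense differences were -0.327 from C-to-A and 3.61 from T-to-C, and the share of C-to-T differed by 0.977 points from SNVs outside genes and by -2.42 from chromosome XII. Counting shared SNVs in every carrier gave a strand difference of 11.8 points from C-to-A (adjusted p = 0.014, permutation test) and a nonsilent difference of 3.10 from T-to-C. In that setting an inherited SNV enters once per carrier, so its p-values do not rest on separate events. A minimum allele frequency of 0.7 gave -9.61 points from chromosome XII (15 suppressors), and SNVs at 0 in YJT75 alone gave 0.240 from SNVs outside genes. For missense SNVs only, added later, the strand bias was 0.0632.

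Leaving out single suppressors changed 1 call, the nonsilent difference from T-to-C without SUP52. The planned comparison of codons and neighbouring bases was not run. No paired analysis was possible because replicate numbers pair no libraries here, each strain having 1. The pairing used was of SNV classes within a suppressor.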
